A study of Mus musculus with 8 samples.

Results

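The small leucine-rich proteoglycans are secreted proteins with a core of leucine-rich repeats, and 9 of their genes are described here in NIH3T3 cells, a mouse embryonic fibroblast line. The genes are Dcn, Bgn, Aspn, Lum, Fmod, Prelp, Omd, Ogn and Podn. They were chosen by name as rows of the deposited count tables, with earlier results of these data known, and all 9 were found among the 23420 entries. RNA was sequenced from 4 libraries of cells given shRNA (short hairpin RNA, which lowers the messenger RNA it matches) against RPRD1B and from 4 libraries of cells given scrambled shRNA. Both groups were grown in bovine calf serum and kept under puromycin for at least 1 week. RPRD1B binds the C-terminal domain of RNA polymerase II, and the study set its knockdown against control cells of the same line. The libraries were deposited as 2 sets: replicates 1 and 2 of either group form set 1, and replicates 3 and 4 form set 2. How the sets differ, and whether replicates were separate cultures, is not stated in the labels, so p-values measure only how these libraries spread. The labels do not state the sequence or number of the shRNAs, and the model is a partial knockdown in 1 cell line.

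Members of this family sit on the surface of collagen fibrils, where they govern how fibrils assemble and how thick they become. Their cores carry chondroitin, dermatan or keratan sulfate chains, or none, and several cores bind growth factors of the TGF-beta family or receptors of innate immunity. Class I holds decorin (Dcn), biglycan (Bgn) and asporin (Aspn). Class II holds lumican (Lum), fibromodulin (Fmod), PRELP (Prelp) and osteomodulin (Omd), class III includes osteoglycin (Ogn), and class V includes podocan (Podn). Fibroblasts of many tissues secrete decorin and biglycan, while several other members are best known from cartilage, tendon, cornea and bone.

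The family lies in a few short stretches of the genome. On GRCm38.p6, the assembly that mm10 names, Dcn (chromosome 10, 97479500 to 97518163) and Lum (97565501 to 97572703) are 47337 bases apart. Aspn (chromosome 13, 49544443 to 49567565), Omd (49582462 to 49592612) and Ogn (49608015 to 49624501) follow each other with 14896 and 15402 bases between them. Prelp (chromosome 1, 133910304 to 133930102) and Fmod (134037254 to 134048280) are 107151 bases apart. Bgn (chromosome X, 73483601 to 73495936) and Podn (chromosome 4, 108014793 to 108031954) lie away from other members. Promoter sequences of RefSeq were matched for 7 of the 9 genes, all but Dcn and Lum. Of these 7, 4 are shown, those of Bgn and Ogn because they are the called genes among the 7, and those of Omd and Aspn because they stand beside Ogn on chromosome 13. Each is the 250 bases before the annotated start on the plus strand. Capitals mark matches on either strand to 4 motifs: TATAAA (the core of the TATA box), CCAAT (the CCAAT box), GGGCGG (the GC box) and TGACTCA (the AP-1 site).
Bgn, chrX:73483351-73483600: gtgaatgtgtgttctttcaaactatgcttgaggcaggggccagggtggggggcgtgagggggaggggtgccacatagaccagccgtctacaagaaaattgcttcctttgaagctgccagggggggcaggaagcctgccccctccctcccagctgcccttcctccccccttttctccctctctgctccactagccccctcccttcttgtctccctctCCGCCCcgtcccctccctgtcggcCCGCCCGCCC
Ogn, chr13:49607765-49608014: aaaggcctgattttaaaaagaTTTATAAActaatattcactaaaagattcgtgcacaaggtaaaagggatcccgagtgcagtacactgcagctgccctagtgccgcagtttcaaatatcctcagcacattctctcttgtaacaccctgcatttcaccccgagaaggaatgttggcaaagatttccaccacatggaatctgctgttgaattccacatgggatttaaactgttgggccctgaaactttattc
Omd, chr13:49582212-49582461: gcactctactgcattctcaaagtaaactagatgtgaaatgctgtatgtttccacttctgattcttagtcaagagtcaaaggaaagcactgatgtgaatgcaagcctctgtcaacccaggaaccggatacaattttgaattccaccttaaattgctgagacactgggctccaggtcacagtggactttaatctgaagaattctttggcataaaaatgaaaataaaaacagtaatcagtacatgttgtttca
Aspn, chr13:49544193-49544442: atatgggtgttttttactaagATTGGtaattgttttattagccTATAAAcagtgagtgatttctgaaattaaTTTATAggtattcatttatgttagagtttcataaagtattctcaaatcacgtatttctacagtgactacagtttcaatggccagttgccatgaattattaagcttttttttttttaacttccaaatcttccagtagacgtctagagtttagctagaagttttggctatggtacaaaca
The Bgn window held 64.4% G and C, above the median of 52.4% over 32851 mouse promoters of the same length, and GGGCGG occurred in it on the minus strand at -34, -10 and -6 from the start, the last pair overlapping. GGGCGG was present in 32.7% of those promoters. The Ogn, Omd and Aspn windows were poorer in G and C, at 42.0%, 38.4% and 30.0%. TATAAA occurred in the Ogn window as an overlapping pair on both strands at -229 and -227, and in the Aspn window at -207 on the plus strand and -178 on the minus strand, against 12.4% of all promoters. CCAAT, present in 33.8% of promoters, occurred in the Aspn window at -229 on the minus strand. None of the 4 motifs occurred in the Omd window, and TGACTCA, present in 4.46% of promoters, occurred in none of the 4 windows shown. Such matches describe letters and say nothing of what binds there.

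Depth ranged from 12311442 to 23223139 counts per library, at which 3 counts, the most that a count of 0 allows, equal 0.131 to 0.242 CPM (a gene's count over the library's total count, on a common scale, here adjusted by edgeR's TMM factors); this covers counting error only. The targeted gene checked the labels: Rprd1b averaged 24.9 ± 2.77 CPM in the RPRD1B knockdown libraries and 41.7 ± 2.12 CPM in the scrambled libraries (SD, n = 4 each), with all 4 knockdown libraries lower. All 8 fibroblast markers examined passed the count filter, and their summed level was 9750 to 9962 CPM in the knockdown libraries and 9557 to 10017 CPM in the scrambled libraries. Of the epithelial markers Epcam, Krt8 and Krt19 had no count in any library, and the same held for Ibsp and Alpl of the osteoblast markers, Tnmd and Kera of the tenocyte markers and Plin1 of the adipocyte markers. Other markers of these lists had counts. The summed epithelial markers were at most 0.146 CPM in any library, and the summed osteoblast markers were at 108 to 235 CPM. Tenocyte markers summed to 8.42 to 14.0 CPM and adipocyte markers to 13.2 to 19.8 CPM over the 8 libraries. Over both sets 888 of 11723 tested genes were called (465 higher and 423 lower in knockdown cells) by edgeR's quasi-likelihood F test with the set as a term, at an adjusted p (Benjamini-Hochberg over all tested genes) under 0.05.

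Decorin and osteoglycin rose in the knockdown cells and biglycan, the member with the highest level per length, fell slightly. Dcn rose to 2.81 times the scrambled level, Ogn rose to 1.30 times, and Bgn fell by 10.1%. Aspn, Prelp and Omd were tested and gave no call, and Lum, Fmod and Podn had too few counts for the test. Thus 3 of the 6 tested members were called, 2 higher and 1 lower, where 7.57% of all tested genes were called, 3.97% higher and 3.61% lower. Since the members were chosen with earlier results of these data known, this share is a description and not a test of enrichment. Within set 1 the same 3 were called, 2 higher and 1 lower, beside 4.86% of tested genes (2.68% higher and 2.18% lower). Within set 2 only Dcn and Bgn were called, 1 higher and 1 lower, beside 5.19% (2.55% higher and 2.64% lower). The median log2 fold change was 0.23 over the 6 tested members and 0.00 over all tested genes, and the median size of a change was 0.08 on the log2 scale over all tested genes. In RNA from whole cultures, a change in the number of cells that express a gene and a change in its RNA per cell cannot be told apart.

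**Figure D1:**
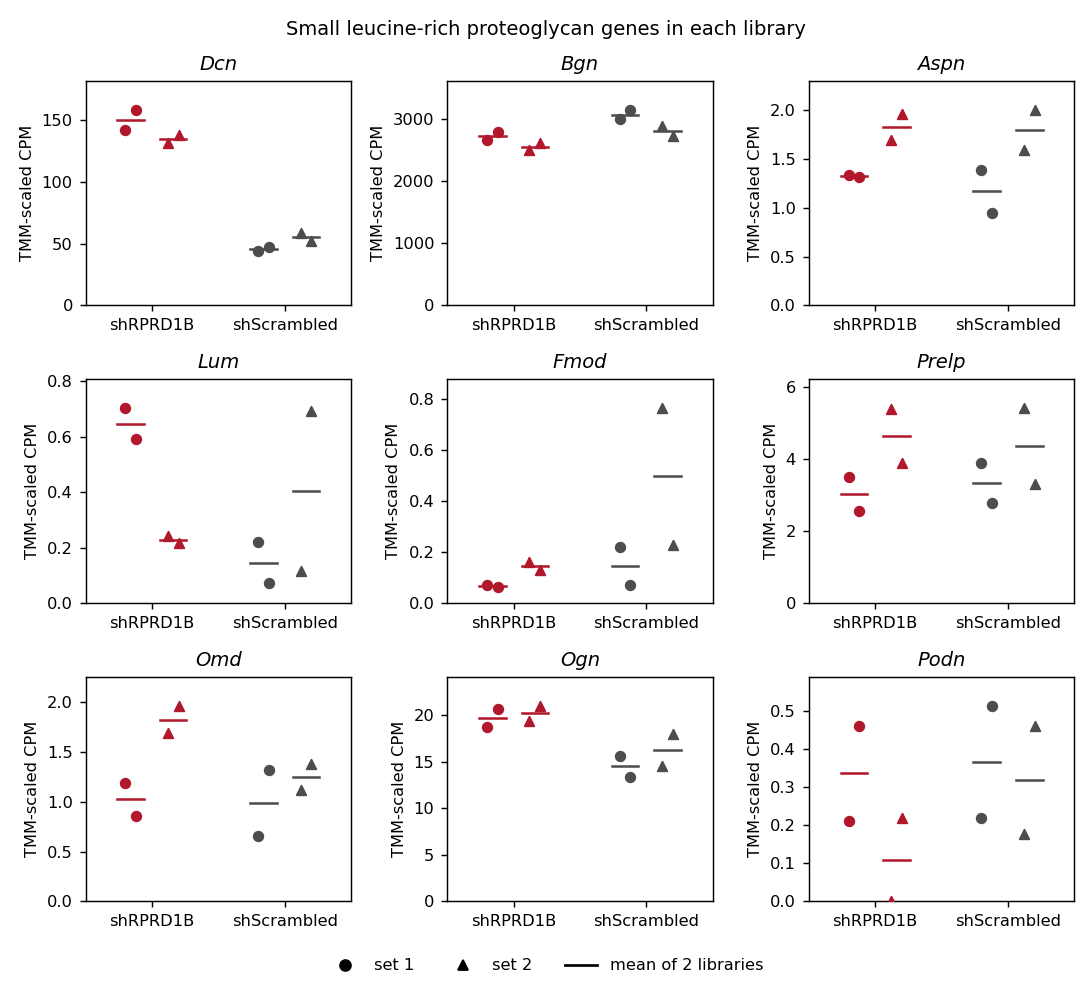
TMM-scaled CPM of the 9 small leucine-rich proteoglycan genes in each library, with knockdown libraries on the left and scrambled libraries on the right of each panel, circles for set 1, triangles for set 2 and bars for the mean of the 2 libraries of a group in a set; each panel has its own linear axis. The 4 knockdown libraries lie above the 4 scrambled libraries for Dcn and Ogn, and below them within each set for Bgn.

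Dcn codes for decorin, which binds collagen fibrils and TGF-beta and carries a single chondroitin or dermatan sulfate chain. Its level was 142 and 158 CPM in the knockdown libraries of set 1, against 43.7 and 47.5 CPM in the scrambled libraries. In set 2 it was 132 and 138 CPM in the knockdown libraries, against 58.9 and 51.9 CPM in the scrambled libraries. Every knockdown library was thus above every scrambled library. Separation in the higher direction within each set, a weaker condition, was found in 8.23% of tested genes, and the share separated over all 8 libraries was not counted. The counts behind these values were 1633 to 3169 per knockdown library and 597 to 1001 per scrambled library. Over both sets the means were 142 ± 11.3 CPM in knockdown cells and 50.5 ± 6.50 CPM in scrambled cells (SD, n = 4 each). This is a log2 fold change of 1.49 ± 0.09 (SE; adjusted p = 1.07e-05 by edgeR), and Dcn ranked 12 of the 465 genes called higher when ordered by fold change. The call was kept in every alternative tried, with log2 fold changes of 1.28 to 1.72. The authors' deposited table lists log2 fold changes of 1.67 for set 1 and 1.25 for set 2, each with a q-value given as 0.

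The rise of Dcn was larger in set 1 than in set 2. Within set 1 the log2 fold change was 1.72 ± 0.07, a 3.30-fold difference, and within set 2 it was 1.28 ± 0.06, a 2.42-fold difference. The difference between the sets, set 2 minus set 1, was -0.44 ± 0.09 on the log2 scale, with an adjusted p of 0.0146 by edgeR for the interaction term. It was the sole difference called among the 6 tested members, where 0.247% of all tested genes were called for the interaction. In set 2 the knockdown libraries were lower and the scrambled libraries higher than in set 1, at means of 135 CPM in knockdown and 55.4 CPM in scrambled cells of set 2, against 150 CPM in knockdown and 45.6 CPM in scrambled cells of set 1. The adjusted p of the difference was 0.146 with DESeq2 in place of edgeR. It was also above 0.05 without knockdown replicate 2 or 3 (0.148 and 0.0845) and without scrambled replicate 1 or 3 (0.103 and 0.346), with log2 differences of -0.35 to -0.52 over the libraries left out in turn.

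Bgn codes for biglycan, the closest relative of decorin, which as a free protein also signals through Toll-like receptors. In set 1 it stood at 2661 and 2794 CPM in the knockdown libraries, against 3004 and 3147 CPM in the scrambled libraries. In set 2 it stood at 2505 and 2620 CPM in the knockdown libraries, against 2891 and 2734 CPM in the scrambled libraries. Knockdown libraries were lower than scrambled libraries within each set, as for 8.18% of tested genes, but the highest knockdown library, replicate 2 of set 1, was above the lowest scrambled library, replicate 4 of set 2. With 31103 to 60122 counts per library, Bgn is the member with the smallest standard error. The means were 2645 ± 119 CPM in knockdown cells and 2944 ± 175 CPM in scrambled cells (SD, n = 4 each), which is a log2 fold change of -0.15 ± 0.03 (adjusted p = 9.84e-05 by edgeR). It was -0.17 ± 0.04 within set 1 (adjusted p = 0.000699) and -0.14 ± 0.04 within set 2 (adjusted p = 0.00504). The authors' deposited table lists q-values of 0.0188 for set 1 and 0.0422 for set 2. The call within set 1 was lost without knockdown replicate 1 (adjusted p = 0.295), and that within set 2 without knockdown replicate 3 (0.211) or scrambled replicate 3 (0.506); over both sets it was kept without each library in turn. The call over both sets was lost with no set term (adjusted p = 0.972) and against a log2 fold threshold of 0.2, which asks for more than a difference from 0 (1.00).

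Ogn codes for osteoglycin, also called mimecan, a class III member found in bone, cornea and vessel walls. In set 1 its level was 18.7 and 20.7 CPM in the knockdown libraries, against 15.6 and 13.4 CPM in the scrambled libraries. In set 2 it was 19.4 and 21.0 CPM in the knockdown libraries, against 14.5 and 18.0 CPM in the scrambled libraries. The groups did not overlap in either set or over both, although the gap between knockdown replicate 1 and scrambled replicate 4 was narrow. Separation in the higher direction within each set, the weaker condition, was found in 8.23% of tested genes. The means were 19.9 ± 1.07 CPM in knockdown cells and 15.4 ± 1.96 CPM in scrambled cells (SD, n = 4 each). This is a log2 fold change of 0.38 ± 0.09 (adjusted p = 0.00256 by edgeR), from 241 to 481 counts per knockdown library and 183 to 247 per scrambled library. Within set 1 the log2 fold change was 0.44 ± 0.13 (adjusted p = 0.0206), and within set 2 it was 0.33 ± 0.12, which was not called (adjusted p = 0.101). The difference between the sets was -0.11 ± 0.18 and was not called (adjusted p = 0.905). The call within set 1 was lost with DESeq2 (adjusted p = 0.334), without knockdown replicate 1 (0.123) or 2 (0.329), and without scrambled replicate 2 (0.258). Over both sets the call was kept without each library in turn and lost with no set term (0.717) and against the log2 fold threshold of 0.2 (0.297). In set 2 alone a call was gained without scrambled replicate 4 (0.0471). The authors' deposited table lists q-values of 0.108 and 0.502 for the sets, so neither set passed there.

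**Figure D2:**
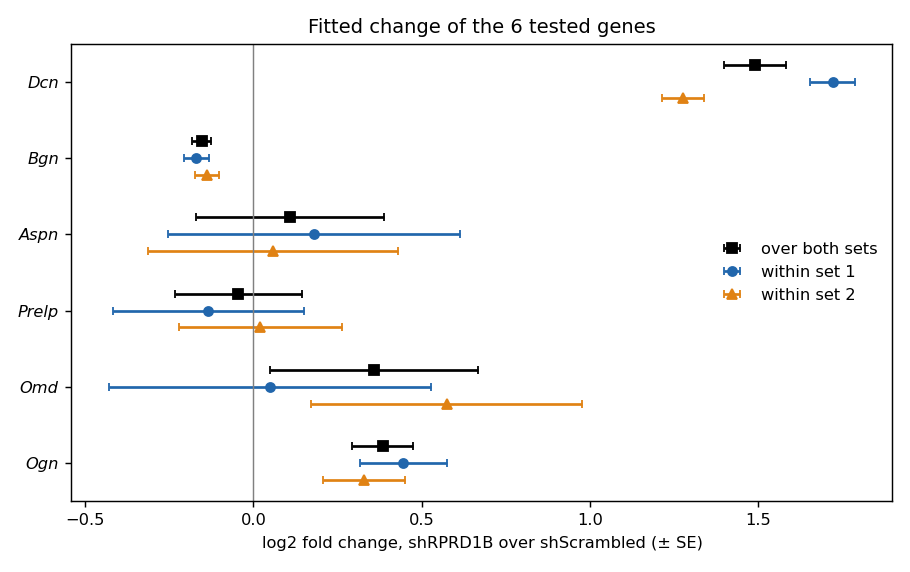
Log2 fold change, knockdown over scrambled, with its standard error for the 6 tested genes, fitted over both sets (black squares), within set 1 (blue circles) and within set 2 (orange triangles). Dcn stands at 1.49 over both sets, Ogn at 0.38 and Bgn at -0.15, while the bars of Aspn, Prelp and Omd are wider.

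Aspn, Omd and Prelp were measured at much lower counts. Aspn, which codes for asporin, a class I member that lacks the attachment site for a sulfated chain and binds TGF-beta, had 19 to 45 counts per knockdown library and 13 to 27 per scrambled library. Its level averaged 1.58 ± 0.310 CPM in knockdown cells and 1.48 ± 0.435 CPM in scrambled cells (SD, n = 4 each). The groups overlapped in both sets. The log2 fold change of 0.11 ± 0.28 was not called (adjusted p = 0.887 by edgeR), and its 95% interval reached from -0.44 to 0.66.

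Omd, which codes for osteomodulin, a keratan sulfate proteoglycan of bone, averaged 1.43 ± 0.495 CPM in knockdown cells and 1.12 ± 0.327 CPM in scrambled cells (SD, n = 4 each). In set 2 the knockdown libraries, at 1.69 and 1.96 CPM, were above the scrambled libraries, at 1.12 and 1.38 CPM, as one of the 45.2% of tested genes that did not overlap in that set in either direction. In set 1 the groups overlapped, at 1.19 and 0.855 CPM in knockdown libraries and 0.659 and 1.32 CPM in scrambled libraries. The log2 fold change over both sets was 0.36 ± 0.31 (adjusted p = 0.588 by edgeR), with a 95% interval of -0.25 to 0.97. That estimate is close in size to the 0.38 of its neighbour Ogn, but with 9 to 45 counts per library its interval holds both 0 and the value of Ogn.

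Prelp, which codes for a heparin-binding member that links basement membranes to collagen, had nearly the same mean in both groups, 3.84 ± 1.18 CPM in knockdown cells and 3.84 ± 1.14 CPM in scrambled cells (SD, n = 4 each). Its libraries spread more than the groups differed, between 2.57 and 5.40 CPM in knockdown cells and between 2.78 and 5.41 CPM in scrambled cells. The log2 fold change was -0.04 ± 0.19 (adjusted p = 0.937 by edgeR), with a 95% interval of -0.42 to 0.33. For Aspn, Omd and Prelp alike, a rise as large as that of Dcn lies outside the interval over both sets.

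Lum, Fmod and Podn had mean counts of 5.25, 3.38 and 4.25 per library and were not tested. Lum, which codes for lumican, the keratan sulfate proteoglycan of the cornea and a regulator of fibril thickness, had 10 and 9 counts in the knockdown libraries of set 1, against 3 and 1 in the scrambled libraries. In set 2 it had 3 and 5 counts in the knockdown libraries, against 2 and 9 in the scrambled libraries. The sums thus gave a depth-scaled ratio of 4.41 in set 1 (95% exact interval 1.47 to 17.8) and 0.617 in set 2 (0.216 to 1.69), intervals that cover counting error only. The knockdown libraries were above the scrambled ones in set 1, where 45.3% of tested genes did not overlap in either direction, and not in set 2. Without the count filter, edgeR gave Lum an adjusted p of 0.259 in set 1, 0.815 in set 2 and 0.727 over both. Lum, which is the gene next to Dcn, had at most 0.702 CPM in any library, while Dcn had at least 43.7 CPM in every library.

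Fmod, which codes for fibromodulin, a tendon proteoglycan that takes part in collagen cross-linking, had 7 counts in all 4 knockdown libraries together and 20 in the 4 scrambled libraries. Of those 20 counts, 13 came from scrambled replicate 3, and no other library held more than 3. The depth-scaled ratio was 0.310 (95% exact interval 0.111 to 0.763, counting error only), and edgeR without the count filter gave an adjusted p of 0.357. Podn, which codes for podocan, a collagen-binding member known from kidney podocytes and vascular smooth muscle, had 15 counts in knockdown and 19 in scrambled libraries, a ratio of 0.699 (0.330 to 1.45), and an adjusted p of 0.769 without the filter. Knockdown replicate 3 held no Podn count, which allows up to 0.242 CPM at its depth. None of these 3 genes was called without the filter, and the counting intervals leave out the spread between libraries.

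The labels were also exchanged between groups within sets, gene by gene, in an exact two-sided permutation test of the mean log2 CPM difference. Its 36 assignments cannot give a p below 0.0556, so that no gene can reach 0.05. In this permutation test Dcn, Bgn and Ogn each had p = 0.0556, and so did Fmod at its 1 to 13 counts per library. The other 5 members had permutation p of 0.333 to 0.944.

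Levels of different genes were set beside each other as CPM per kilobase of merged exons. Bgn stood first, at 434 ± 19.5 CPM per kilobase in knockdown cells and 483 ± 28.7 in scrambled cells (SD, n = 4 each), and ranked 57 of 10980 tested genes with a length. Dcn followed at 24.4 ± 1.93 in knockdown cells and 8.65 ± 1.11 in scrambled cells, then Ogn at 7.77 ± 0.416 in knockdown cells and 5.99 ± 0.764 in scrambled cells. In each library Bgn was above Dcn and Dcn was above Ogn. Prelp, at 1.06 CPM per kilobase in either group, was below Ogn in every library, and its range overlapped that of Aspn, whose own range overlapped that of Omd. Lum, Podn and Fmod were below these in every library, without a clear order among themselves.

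**Figure D3:**
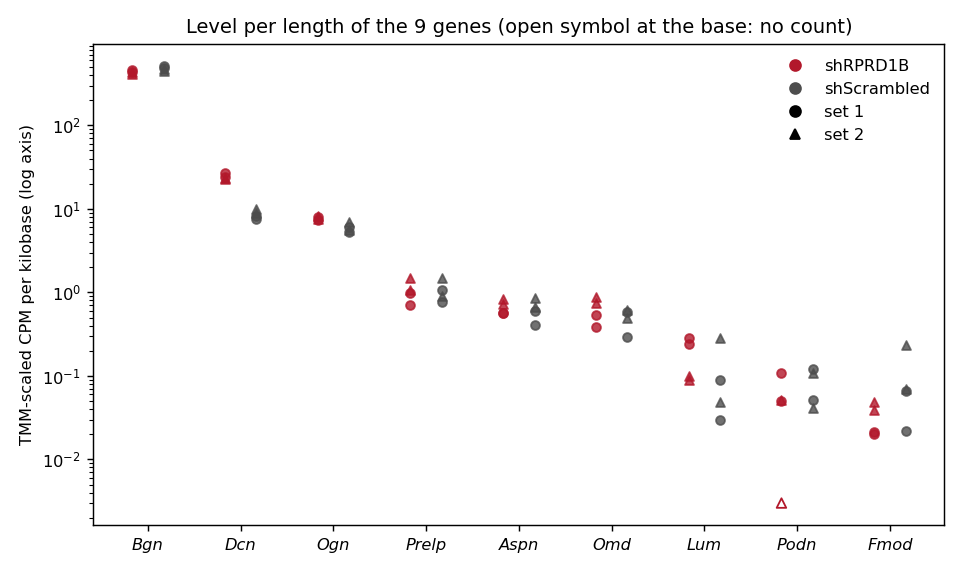
TMM-scaled CPM per kilobase of merged exons on a log axis for the 9 genes, ordered by their mean, in knockdown libraries (red, left) and scrambled libraries (grey, right) of set 1 (circles) and set 2 (triangles). Bgn, Dcn and Ogn are separated from each other in every library, and the open triangle at the base stands for the library with no Podn count.

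Biglycan made up most of the family's summed length-scaled level in both groups, and its lead over decorin was smaller in knockdown cells. Bgn held 92.6 ± 0.124% of the summed level in knockdown cells and 96.6 ± 0.546% in scrambled cells (SD, n = 4 each). Dcn held 5.20 ± 0.182% in knockdown cells and 1.74 ± 0.280% in scrambled cells, and Ogn held 1.66 ± 0.0920% in knockdown cells and 1.21 ± 0.216% in scrambled cells. The ratio of Bgn to Dcn per kilobase was 17.9, 16.9, 18.2 and 18.2 in knockdown replicates 1 to 4, against 65.8, 63.4, 47.0 and 50.4 in scrambled replicates 1 to 4. The summed level of the 9 genes was 468 ± 21.1 CPM per kilobase in knockdown cells and 500 ± 27.0 in scrambled cells, so the ranges of 444 to 495 and 467 to 531 overlapped. These shares depend on the lengths used: with the mean transcript length, Bgn held 95.2% in knockdown and 98.2% in scrambled cells and Dcn 4.17% in knockdown and 1.38% in scrambled cells. Ogn then held 0.381 to 0.434% in knockdown libraries and 0.238 to 0.367% in scrambled libraries. Changing the length measure thus moved the share of Ogn relatively more than that of Bgn or Dcn in either group. Between knockdown and scrambled cells the share of Dcn changed relatively more than that of Ogn with both length measures.

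The level of 2 members also varied between the sets, with the group fitted. Prelp was higher in set 2 than in set 1 by 0.49 ± 0.19 on the log2 scale (adjusted p = 0.0189 by edgeR), and Bgn was lower by 0.11, at -0.11 ± 0.03 (adjusted p = 0.000719). These 2 of 6 tested members were called for the set, where 65.9% of all tested genes were. Dcn, at 0.02 ± 0.09, and Ogn, at 0.09 ± 0.09, were not called. The Prelp call was lost without knockdown replicate 2 or 3 (adjusted p = 0.0901 and 0.0922) and without scrambled replicate 2 or 3 (0.0681 and 0.133).

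The nearest tested gene on each side of every member was examined, and for Lum one of these is Dcn itself. The nearest tested genes around Dcn are Btg1 and Atp2b1, with centres 0.88 and 1.47 Mb from that of Dcn. Lum, which was not tested, is closer. Btg1, an antiproliferative gene, was at a log2 fold change of 0.05 ± 0.04 (adjusted p = 0.553). Atp2b1, a calcium pump of the plasma membrane, rose by 0.14 ± 0.03 (adjusted p = 0.00221). Within 2 Mb of Dcn 8 other genes were tested, with log2 fold changes of -0.19 to 0.18, and Atp2b1 was the sole one called. Counts of called neighbours stand beside the 7.57% called over all tested genes, and they are a description. Around Ogn 20 others were tested over the same distance, from -0.23 to 0.36 and none called, Omd being the one at 0.36. Ecm2 (0.35 ± 0.28), Cenpp (0.01 ± 0.13) and Nol8 (0.03 ± 0.05) are the nearest tested genes around Aspn, Omd and Ogn. Around Bgn 43 others were tested, 1 called higher and 2 lower, and neither of its nearest neighbours was called, Haus7 (0.04 ± 0.08), which codes for a subunit of the augmin complex, and Dusp9 (0.24 ± 0.14), a dual-specificity phosphatase. Btg2, on the far side of Fmod from Prelp, had a log2 fold change of -0.28 ± 0.05 (adjusted p = 7.40e-06) and so fell, while Atp2b4, on the other side of Prelp, was at -0.28 ± 0.16 (adjusted p = 0.339). The neighbours of Podn, Cpt2 and Scp2, were at -0.10 ± 0.08 and -0.15 ± 0.06 (adjusted p = 0.530 and 0.107), all by edgeR.

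**Figure D4:**
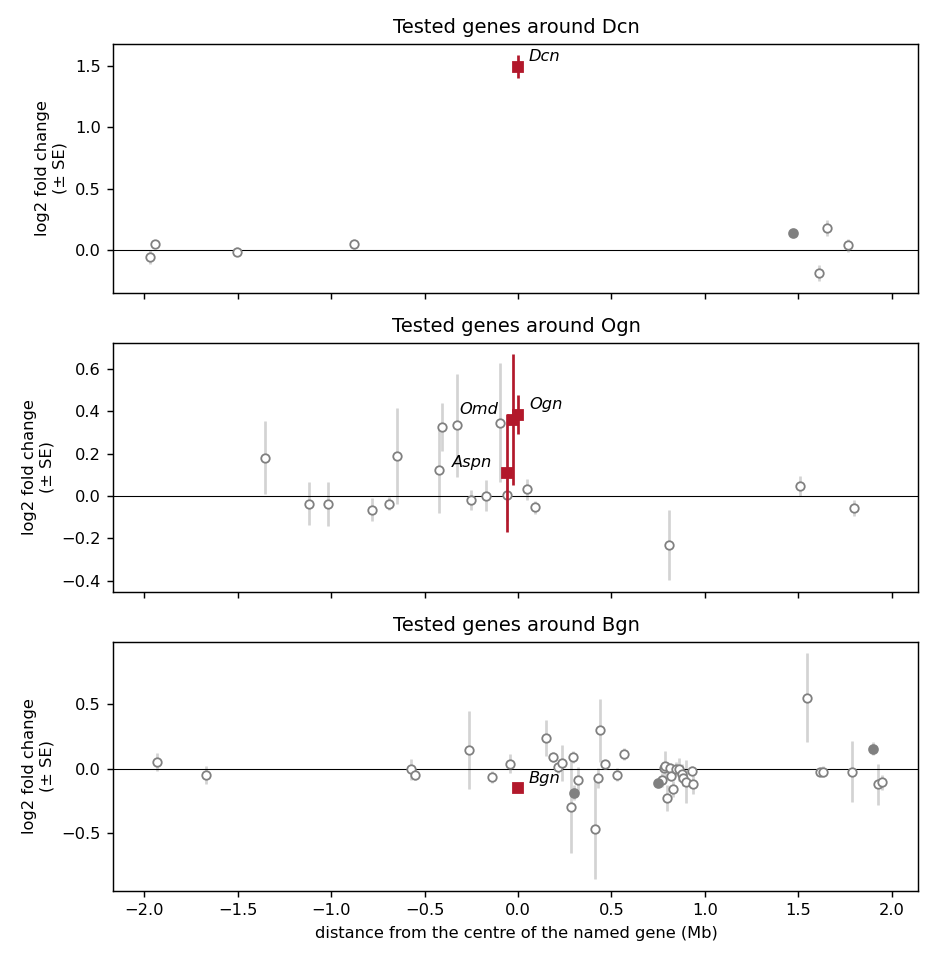
Log2 fold change, knockdown over scrambled, with its standard error, of tested genes against the distance of their centres from the centre of Dcn, Ogn or Bgn in megabases. Red squares are small leucine-rich proteoglycan genes, filled grey circles other genes with an adjusted p under 0.05 and open circles the rest; Dcn, at 1.49, stands apart from its 8 tested neighbours, which lie between -0.19 and 0.18.

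Some counts may be shared between overlapping genes, since the library kit is not described as stranded. In the GENCODE annotation Cenpp, which codes for a centromere protein, runs across Aspn, Omd and Ogn on the opposite strand, and the antisense gene Gm15851 overlaps Prelp. A readthrough form of Podn overlaps Scp2. These are overlaps of whole gene spans, and whether exons overlap was not examined. If strand was not used in counting, reads could be confused only where counted stretches of an opposite-strand pair overlap. Whether strand was used is not stated. The members share only short runs of identical coding sequence: the longest run shared by the coding sequences of Dcn (354 codons) and Bgn (369 codons) is 17 bases, in exon 7 of each, against reads of 75 bases. It lies at chr10:97513675-97513691 and chrX:73493276-73493292, on the plus strand, and all of it is shared, so it is in capitals.
Dcn and Bgn: CACTTGGACAACAACAA
The longest run shared by any pair of the 9 coding sequences was 19 bases, between Omd and Podn.

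Among genes that make, bind or process these proteoglycans, the calls went in both directions. Their counts stand beside the 7.57% of all tested genes that were called, 3.97% higher and 3.61% lower. These lists, too, were chosen with earlier results of these data known, so their shares are a description. The 7 lists held 19 called genes, while DESeq2 called 11 and the fit with no set term called 1, Col3a1. Without scrambled replicate 1 they held 10, and without knockdown replicate 2 they held 12. Of 14 tested collagens, the main partners of the family, 2 were higher and 5 lower (50% called), with a median log2 fold change of -0.02. These were fibrillar and fibril-associated collagens and the chains of collagen VI, which is neither and gave most of the lower calls. Col3a1, the fibril collagen of soft tissues, stood at 169, 170, 160 and 156 CPM in knockdown replicates 1 to 4, against 117, 119, 114 and 125 CPM in scrambled replicates 1 to 4. The groups did not overlap, and Col3a1 rose by 0.46 ± 0.04 on the log2 scale (adjusted p = 1.97e-14 by edgeR). Separation in the higher direction within each set was found in 8.23% of tested genes. Col11a1, which nucleates fibrils, rose by 0.45 ± 0.08 over both sets (adjusted p = 1.20e-05), and in set 1 alone it was at 0.33 (adjusted p = 0.0644). Col6a1 and Col6a2, subunits of the microfibrillar collagen VI to which decorin and biglycan bind, fell by 0.23 each (adjusted p = 5.97e-07 and 5.48e-07). Col6a2 was at 207 to 225 CPM in knockdown libraries and 254 to 256 CPM in scrambled libraries, without overlap. Separation in the lower direction within each set was found in 8.18% of tested genes.

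Enzymes that build the sugar chains gave few calls. Of 21 tested genes for the linker, chondroitin and dermatan sulfate, 2 were higher and none lower (9.52% called, near the share over all genes), with a median log2 fold change of 0.01. These were the nucleotide sugar transporter Slc35d1, at 0.21 ± 0.06 (adjusted p = 0.0304 by edgeR), and Csgalnact1, which starts chondroitin chains, at 0.21 ± 0.07 (adjusted p = 0.0431). Neither call held without each library in turn. Slc35d1 lost it without knockdown replicate 1 (0.0520) or 3 (0.142) and scrambled replicate 1 (0.150), 3 (0.0746) or 4 (0.101), and Csgalnact1 lost it without any one library except knockdown replicate 3, at adjusted p of 0.0590 to 0.202. Of 9 tested genes for keratan sulfate, 1 was called (11.1%): B3gnt2, which extends the repeating sugar chain, had a log2 fold change of -0.32 ± 0.06 (adjusted p = 0.000123) and fell, and the other 8 were not called. In set 1 alone B3gnt2 was at -0.22 (adjusted p = 0.0901).

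Of 19 tested ligands and receptors bound by family members, 2 were higher and 4 lower (31.6% called), with a median log2 fold change of 0.00. The insulin-like growth factor Igf1 was at 5.69, 5.79, 5.40 and 6.36 CPM in knockdown replicates 1 to 4, against 9.45, 7.61, 8.53 and 9.07 CPM in scrambled replicates 1 to 4, and fell by 0.56 (SE 0.13, adjusted p = 0.00257 by edgeR). Its call was lost in each set alone (adjusted p = 0.0605 in either). Its receptor Igf1r, to which decorin binds, fell by 0.17 (SE 0.03, adjusted p = 0.000307). Ctgf, a matricellular ligand of decorin, fell by 0.14 (SE 0.03, adjusted p = 0.00298), a call lost without scrambled replicate 1 (0.0561). Cd14, a co-receptor of the Toll-like receptors that bind biglycan, rose by 0.85 ± 0.26 (adjusted p = 0.0249), from 12 to 59 counts per library. That call was lost without knockdown replicate 2 (0.117) or 4 (0.0767) and without scrambled replicate 1 (0.0630), 2 (0.0547) or 3 (0.0740).

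Of 9 tested genes for proteinases that process family members, and for their enhancers, only Adamts5, an aggrecanase, was called (11.1%), at -0.14 ± 0.04 (adjusted p = 0.0293 by edgeR). It was not called without knockdown replicate 3 (0.166) or 4 (0.0689) or scrambled replicate 3 (0.111) or 4 (0.117). Of 6 tested genes for large and other matrix proteoglycans, a link protein gene among them, 2 were called (33.3%). Vcan, the versican of loose connective tissue, rose by 0.17 ± 0.03 (adjusted p = 1.52e-05). Ncan, the neurocan best known from brain, rose by 0.61 ± 0.20 (adjusted p = 0.0440), a call lost without knockdown replicate 2 (0.213), 3 (0.0525) or 4 (0.0944) and without scrambled replicate 1 (0.265) or 4 (0.0864). Of 8 further genes of the small leucine-rich family, Tsku, Ecm2 and Podnl1 were tested and not called, Kera had no count in any library, and Epyc, Optc, Chad and Nyx had at most 11.

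**Figure D5:**
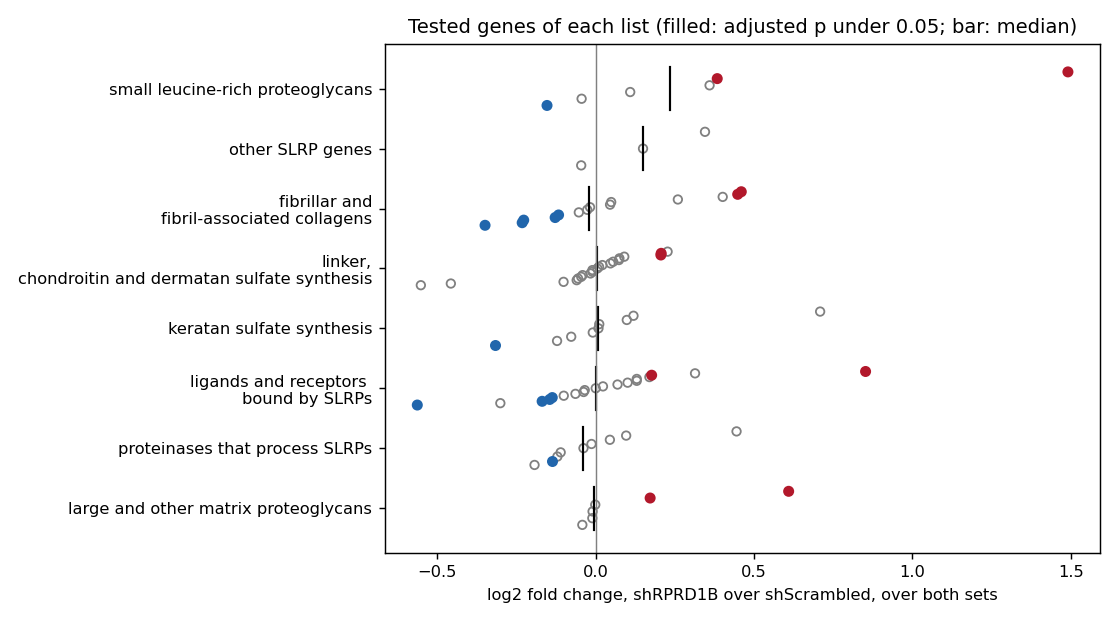
Log2 fold change, knockdown over scrambled, over both sets for each tested gene of the family and of the 7 lists of related genes, one row per list, with filled points for an adjusted p under 0.05 (red higher, blue lower) and a black bar for the median. Dcn at 1.49 is the point farthest to the right, and each list other than that of the further family members holds called genes.

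Markers of other matrix-forming cells were set beside these values. The summed chondrocyte markers were at 191 to 443 CPM in knockdown libraries and 168 to 428 CPM in scrambled libraries, with 2 of 7 tested and Sox9, a cartilage regulator, called higher (0.13 ± 0.03, adjusted p = 0.00795 by edgeR). The summed osteoblast markers were at 113 to 233 CPM in knockdown libraries and 108 to 235 CPM in scrambled libraries, with 2 of 7 tested and Phex, an osteocyte endopeptidase, called higher (0.59 ± 0.13, adjusted p = 0.000765). Tenocyte markers summed to 8.42 to 13.3 CPM in knockdown libraries and 8.72 to 14.0 CPM in scrambled libraries, and the 1 of 4 that was tested was not called. Adipocyte markers summed to 14.8 to 19.8 CPM in knockdown and 13.2 to 19.8 CPM in scrambled libraries, with 1 of 6 tested and not called. Macrophage markers summed to 5.85 to 7.65 CPM in knockdown and 5.41 to 10.7 CPM in scrambled libraries, with 2 of 5 tested and neither called. Endothelial markers summed to 0.305 to 0.658 CPM in knockdown and 0.176 to 0.461 CPM in scrambled libraries. None of the 4 endothelial markers passed the count filter, so none could be called. Of the 8 fibroblast markers 4 were called, where 7.57% of all tested genes were. Pdgfra, a growth factor receptor, was higher (0.37 ± 0.04, adjusted p = 5.56e-11 by edgeR), as was the intermediate filament gene Vim (0.12 ± 0.03, adjusted p = 0.00258). The collagen-modifying P4hb was lower (-0.19 ± 0.03, adjusted p = 4.62e-06), as was the receptor gene Pdgfrb (-0.16 ± 0.04, adjusted p = 0.00920). The part of these markers in the values of Dcn, Ogn and Bgn was not tested.

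The genes whose pattern was most like that of a called member were found by Pearson's correlation of log2 CPM over the 8 libraries after each set's mean was taken away, among the 10161 genes that averaged at least 50 counts per library. For Dcn these were Gsta4, a glutathione transferase (r = 0.997), Slit2, a secreted guidance ligand (r = 0.989), and Fth1, the ferritin heavy chain (r = 0.989). They were higher in knockdown cells by 0.37 ± 0.04, 1.05 ± 0.04 and 0.19 ± 0.03 on the log2 scale (adjusted p = 5.81e-11, 8.68e-33 and 3.30e-07 by edgeR). For Bgn they were Smtn, a smooth muscle cytoskeletal gene (r = 0.989), Maml1, a Notch coactivator (r = 0.982), and Vasn, which codes for a membrane protein with leucine-rich repeats that binds TGF-beta (r = 0.980). Smtn and Vasn were lower in knockdown cells, at -0.25 ± 0.05 and -0.19 ± 0.04 (adjusted p = 0.000485 and 0.000366 by edgeR), and Maml1, at -0.12 ± 0.05, was not called (adjusted p = 0.135). For Ogn they were the phosphatase subunit gene Ppp6r1 (r = 0.979), the protease inhibitor gene Serpinb6a (r = 0.973) and Gpr155 (r = 0.965). Serpinb6a was higher, at 0.21 ± 0.04 (adjusted p = 0.000655 by edgeR), while Ppp6r1, at 0.15 ± 0.06, and Gpr155, at 0.22 ± 0.12, were not called (adjusted p = 0.103 and 0.286). These correlations share the libraries, their depth and the difference between groups, and they are given as a description.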

How the data were processed

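The authors deposited 2 tables of whole-number counts per gene, 1 per set of 4 libraries, not normalized, for the same 23420 entries, and these counts were used in every test. Their comparison tables list, per the file headers, a mean scaled count (a signal from counts divided by size factors), a log2 fold change with its standard error and a q-value; these values of the authors were set beside the results and not tested. Paired-end reads were 75 bases long, per the labels' protocols, and the build was mm10, per the submitters' processing notes. The aligner, counting tool and annotation were not given in the sources used here. Of the entries, 27 are gene names turned into dates; they were kept in totals and tests and are not named.

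Genes averaging at least 10 counts per library were tested with edgeR 4.0.16 (R 4.3.3, limma 3.58.1) on TMM-scaled counts by its robust quasi-likelihood F test, two-sided, adjusted over all tested genes. Terms were set and group over 8 libraries, group alone within a set, and their interaction for the difference between sets. SE is the size of the log2 fold change divided by the root of F, and 95% intervals come from it. Ratios of summed counts have exact binomial intervals. Exon lengths came from GENCODE vM21 (21712 names matched), coordinates and promoters from RefSeq GRCm38.p6 (23234 of 23393 names). Replicates differed beyond counting noise in every group and set, so none was merged. The tests were tried on simulated counts. The members and the 7 related lists were chosen with earlier results of these data known. Named genes are the members, up to 4 called genes of each list with the smallest p, the nearest tested gene on each side and the 3 most correlated genes of each called member; Sox9, Phex, Pdgfra, Vim, P4hb and Pdgfrb were named after their values were seen. Alternatives were no filter or a mean of 50, DESeq2 1.42.0 size factors or test, upper-quartile scaling, a log2 fold threshold of 0.2, no set term, a replicate block, each set alone and leaving out each library.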

Additional observations from a re-analysis of the deposited data

Results flagged for a closer look

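The knockdown effect on Dcn differed between the library sets by the interaction test. The log2 fold change, knockdown over scrambled, was 1.72 in set 1 and 1.28 in set 2, and set 2 minus set 1 was -0.44 ± 0.09 (adjusted p = 0.0146 by edgeR). The difference was still called with no count filter, a mean count of 50, DESeq2 size factors, upper-quartile scaling and the replicate block, and it was not called by the DESeq2 test (adjusted p = 0.146), against a fold threshold (0.809) or when any of 4 of the 8 libraries was left out. What distinguishes the sets is not labelled.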

How the results depend on the processing

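Over both sets 3 members were called, with 3 also under the replicate block and without each library in turn, and 1, Dcn, against a log2 fold threshold of 0.2 and with no set term. No pairing by replicate number was seen: same-numbered deviations correlated at 0.0208 in set 1 and -0.0450 in set 2. With 2 libraries per group and set, this cannot show that the libraries were unpaired, and the labels do not say. Of 106 alternative values of the 6 tested members over both sets, 95 kept direction and side of the threshold, 5 lost the call and 6 changed sign, all 6 those of Prelp (0.0014 with the replicate block, 0.020 in set 2 alone, -0.20 to 0.11 without each library). The lost calls were those of Bgn (adjusted p = 1.00 against the fold threshold, 0.972 with no set term) and Ogn (0.297, 0.717 and, in set 2 alone, 0.101). In set 1 the 3 members called became 1 against the fold threshold and 1 to 3 without each library. In set 2 the 2 called became 1 and 1 to 3. The 1 member called for the difference became 0 with DESeq2 or the fold threshold and 0 to 1 without each library. The 2 called for set 2 against set 1 became 0 against the threshold and 1 to 2. Called genes of the 7 related lists, 19 in all, became 11 with DESeq2, 2 against the fold threshold, 1 with no set term, 7 in set 1 alone, 10 in set 2 alone and 10 to 16 without each library. The 888 calls over all genes became 144 against the threshold and 18 with no set term, the 563 of set 1 became 140 with DESeq2 and 105 against the threshold, the 611 of set 2 became 184 and 98, and the 29 for the difference became 5 and 4. Signs also changed without single libraries in set 1 (Prelp -0.37 to 0.13, Aspn -0.068 to 0.48, Omd -0.36 to 0.63), in set 2 (Prelp -0.27 to 0.45, Aspn -0.11 to 0.22), for the difference (Prelp -0.13 to 0.58, Ogn -0.27 to 0.041, Aspn -0.42 to 0.13, Omd -0.047 to 0.94) and for Dcn between sets (-0.051 to 0.11; -0.0025 with upper-quartile scaling). The cause of these changes was not tested. Depth limits Lum, Fmod and Podn, with means of 5.25, 3.38 and 4.25 counts per library, and the precision of Aspn and Omd, with 9 to 45.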
